A study of Mus musculus with 24 samples.

Results

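The mitochondrial ribosomal protein genes are the nuclear genes whose array symbol starts with Mrpl (large subunit) or Mrps (small subunit). The Illumina MouseRef-8 v2 array carried 76 such symbols on 110 probes. A gene was tested if some group had a probe of it with a detection p under 0.01 on each of its 2 arrays, and of several such probes the brightest on average stands for the gene. This left 71 genes, 44 of the large and 27 of the small subunit, among 8932 genes tested. The 5 others, Mrpl19, Mrpl21, Mrpl32, Mrps14 and Mrps36, were detected on none of the 24 arrays and have no value here.

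Total RNA of mouse pluripotent lines was measured in 12 groups of 2 arrays, which the labels call biological replicates, so p-values measure the spread between such pairs. The female lines were Epi-Sox2f, an OG2 epiblast stem cell (EpiSC) line labelled as overexpressing Sox2, its parent EpiSCf, and ESCf, OG2 embryonic stem cells. The male GOF18 lines were EpiSox2mL2, EpiSox2mE1 and EpiSox2mE2, all labelled as overexpressing wild-type Sox2, and their parent EpiSCm. EpiSox2mL2 was kept in EpiSC medium (CM) and the other two in ESC medium, where they are called ESC-like, while no medium is given for the remaining groups. ESCm are male embryonic stem cells. The embryonal carcinoma cells, teratocarcinoma stem cells labelled male, were F9-Sox2 with F9 EC and P19-Sox2 with P19 EC. The labels give neither the promoter that drives Sox2 nor whether a line is a single clone.

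The mitochondrial ribosome translates the few messages of the mitochondrial genome, all of which encode core subunits of the respiratory chain and ATP synthase. Its RNAs are made inside the organelle, whereas every protein of it is encoded in the nucleus, translated in the cytosol and imported. Some of these proteins have a bacterial counterpart and the rest are particular to mitochondria. In pluripotent cells mitochondria are typically small and sparse in cristae, and the balance between glycolysis and respiration differs between the naive state of embryonic stem cells and the primed state of EpiSCs.

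By the number in the symbol, 40 of the 71 genes have a bacterial counterpart (Mrpl numbers up to 36 and Mrps numbers up to 21) and 31 do not. Subunits are given by symbol, although the products of Mrps18a and Mrps30 sit in the large subunit of the mammalian particle. Of the 71 genes, 65 were detected on all 24 arrays. Arrays detected between 9840 and 11415 of 25697 probes, and replicates correlated between 0.983 and 0.996 over the 71 genes. The 8 arrays of the GOF18 lines were dimmer, with median intensities of 90.2 to 101.1, against 118.6 to 152.2 on the other 16. The Sox2 probe was 2.30-fold higher in F9-Sox2 and 1.76-fold higher in P19-Sox2 than in their parents, and 1.90-, 2.26- and 2.45-fold higher in EpiSox2mL2, EpiSox2mE1 and EpiSox2mE2 than in EpiSCm. In Epi-Sox2f it was not higher than in EpiSCf, with a log2 change of -0.18 and an adjusted p of 0.324, so this probe does not bear out the label, and whether it covers the added Sox2 of that line is not given in the sources used here. All 5 primed epiblast markers were detected in every EpiSC-derived group, and all 8 pluripotency markers in both embryonic stem cell groups. Klf4, Esrrb and Dppa5a, which mark the naive state, were detected on no array of Epi-Sox2f or EpiSCf. The GOF18 groups differed from this. EpiSCm detected 7 of the 8 pluripotency markers on both arrays and EpiSox2mL2 all 8, while Klf4 was detected on no array of EpiSox2mE1 or EpiSox2mE2.

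In each of the 3 GOF18 lines that overexpress Sox2, the falls among mitochondrial ribosomal protein genes outnumbered the rises, while 37 of the 71 genes fell in none of the lines. Against EpiSCm, 22 of the 71 genes fell and 1 rose in EpiSox2mL2, where 11.4% of all genes tested fell and 12.9% rose. In EpiSox2mE1, 22 fell and 1 rose, against 15.5% and 13.2% of all genes. In EpiSox2mE2, 21 fell and 1 rose, against 16% and 12.4% of all genes. As shares of the 71 genes, those that fell make 31%, 31% and 29.6%. A gene was called at an adjusted p under 0.05 in limma's moderated test, with Benjamini-Hochberg adjustment over all 8932 genes. The median log2 change of the 71 genes was -0.27 in EpiSox2mL2, -0.27 in EpiSox2mE1 and -0.23 in EpiSox2mE2, and that of all genes was -0.01, -0.03 and -0.03. The 3 comparisons share the EpiSCm arrays, so they are not independent of each other. In bulk RNA, a smaller share of cells expressing a gene and less RNA per cell cannot be told apart.

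**Figure D1:**
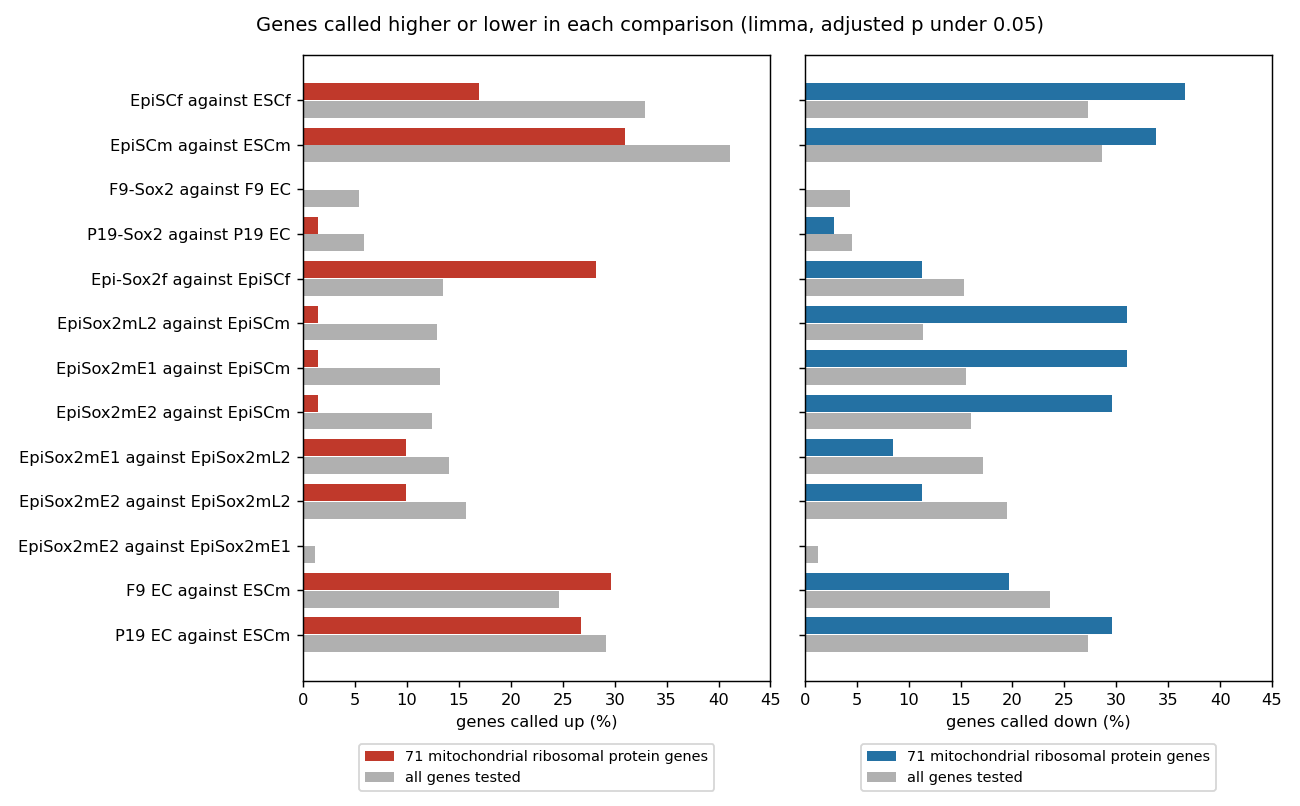
Percentage of genes called up (left) and down (right) in each of 13 comparisons, for the 71 mitochondrial ribosomal protein genes (coloured bars) and for all 8932 genes tested (grey bars). The blue bars of the 3 GOF18 lines against EpiSCm, at 29.6% to 31%, and the red bar of Epi-Sox2f against EpiSCf, at 28.2%, lie above their grey bars.

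Both subunits took part. In EpiSox2mL2, 14 of 44 large and 8 of 27 small subunit genes fell, in EpiSox2mE1 15 and 7, and in EpiSox2mE2 16 and 5. Genes with a bacterial counterpart made 14 of the falls in each line, out of 40, and the remaining 8, 8 and 7 came from the 31 without one. Where a gene that fell had further kept probes, these were lower too, though some lay near background, and probes that were not kept are not counted. The second probe of Mrpl1 was detected on 1 of the EpiSCm arrays and changed by -0.01 in EpiSox2mE2. That of Mrpl47 was detected on no array of EpiSox2mL2 or EpiSox2mE2, and that of Mrpl13 on 1 array of each line. In EpiSox2mL2 all 8 further probes of 6 such genes were lower, and 5 of them were called. The corresponding counts were 7 of 7 probes lower with 3 called in EpiSox2mE1 and again in EpiSox2mE2. Probes of 1 gene share their target and are no separate evidence about the cells.

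Among large subunit genes, Mrpl22 codes for a protein that lines the exit tunnel of the nascent chain. Its log2 values were 9.68 and 9.84 in EpiSox2mL2, 9.70 and 10.02 in EpiSox2mE1, and 10.05 and 9.93 in EpiSox2mE2, against 10.86 and 10.67 in EpiSCm. All 6 arrays with overexpressed Sox2 lie below both parental arrays. Mrpl22 was 2.00-, 1.87- and 1.71-fold lower in the 3 lines, with adjusted p-values of 0.000157, 0.000245 and 0.00103. Mrpl1 codes for the protein of the L1 stalk, which handles the departing tRNA. It read 9.04 and 9.40 in EpiSox2mL2, 9.20 and 9.38 in EpiSox2mE1, and 9.75 and 9.30 in EpiSox2mE2, against 10.01 and 10.42 in EpiSCm. Here too no array of the 3 lines reaches the parent. Its log2 changes were -1.0 ± 0.17, -0.93 ± 0.17 and -0.69 ± 0.17 (SE of the fit, n = 2 arrays a group), with adjusted p-values of 0.000331, 0.000379 and 0.00440.

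Mrpl27, whose bacterial homologue reaches into the peptidyl transferase centre, read 9.21 and 9.51 in EpiSox2mL2, 9.11 and 9.39 in EpiSox2mE1, and 9.27 and 8.89 in EpiSox2mE2, against 10.08 and 10.23 in EpiSCm. The groups do not overlap, and Mrpl27 was 1.87-fold lower in EpiSox2mE1 and 2.11-fold lower in EpiSox2mE2, with adjusted p-values of 0.00145 and 0.000339. In EpiSox2mL2 its log2 change was -0.80 (adjusted p = 0.00548). Further large subunit genes that fell in each line were Mrpl20, an early assembly protein in bacteria, with log2 changes of -0.74, -0.62 and -0.55 in EpiSox2mL2, EpiSox2mE1 and EpiSox2mE2, and Mrpl55, a protein without a bacterial counterpart, with -0.77, -0.70 and -0.59. Mrpl58, the peptidyl-tRNA hydrolase that frees stalled ribosomes, changed by -0.38, -0.54 and -0.54. Mrpl13 and Mrpl47 fell as well, by 0.68, 0.44 and 0.46 and by 0.64, 0.47 and 0.41 on the log2 scale.

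Of the small subunit, Mrps16 read 9.16 and 9.24 in EpiSox2mL2, 9.19 and 9.41 in EpiSox2mE1, and 9.24 and 9.26 in EpiSox2mE2, against 10.03 and 10.29 in EpiSCm. It belongs to the proteins that bind the small ribosomal RNA during assembly, and loss of it in humans causes a mitochondrial disease. Its log2 changes of -0.96, -0.86 and -0.91 had adjusted p-values of 0.000177, 0.000303 and 0.000187. Mrps17, another binder of the small ribosomal RNA, read 11.49 and 11.68 in EpiSox2mL2, 11.24 and 11.42 in EpiSox2mE1, and 11.59 and 11.21 in EpiSox2mE2, against 12.15 and 12.21 in EpiSCm. Its 6 arrays in the 3 lines are again all below the parent, with log2 changes of -0.59, -0.86 and -0.78 and adjusted p-values of 0.00414, 0.000112 and 0.000296. The largest fall in EpiSox2mL2 was that of Mrps25, with a log2 change of -1.23 on the probe used. Its other kept probes were lower there too, with means of 7.63 against 8.22 and 7.36 against 7.63 in EpiSCm. In EpiSox2mE1 and EpiSox2mE2 Mrps25 changed by -0.51 and -0.16 and was not called.

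Mammals have 3 homologues of the bacterial protein S18, which occupy different places in the ribosome, and only Mrps18c of these was called. Mrps18c read 8.69 and 8.90 in EpiSox2mL2, 9.19 and 9.20 in EpiSox2mE1, and 9.05 and 9.25 in EpiSox2mE2, against 9.91 and 9.85 in EpiSCm, with no overlap. It fell by 1.08, 0.68 and 0.73 on the log2 scale, with adjusted p-values of 2.73e-05, 0.00124 and 0.000778. Mrps18a changed by -0.25, -0.17 and -0.07 and Mrps18b by -0.20, -0.06 and -0.02, none of which passed the test, and the difference between the homologues was not tested. The rises were 1 gene a line. Mrpl14, whose product holds the factor that keeps the subunits apart, rose by 0.45 in EpiSox2mL2 (adjusted p = 0.00984). Mrps30 rose by 0.35 in EpiSox2mE1 (adjusted p = 0.0249) and Mrpl15 by 0.85 in EpiSox2mE2 (adjusted p = 0.00260). Each of these rises was lost with 1 array left out, Mrpl14 without EpiSCm replicate 1 or EpiSox2mL2 replicate 2, Mrpl15 without EpiSCm replicate 2, and Mrps30 without any 1 of its 4 arrays.

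**Figure D2:**
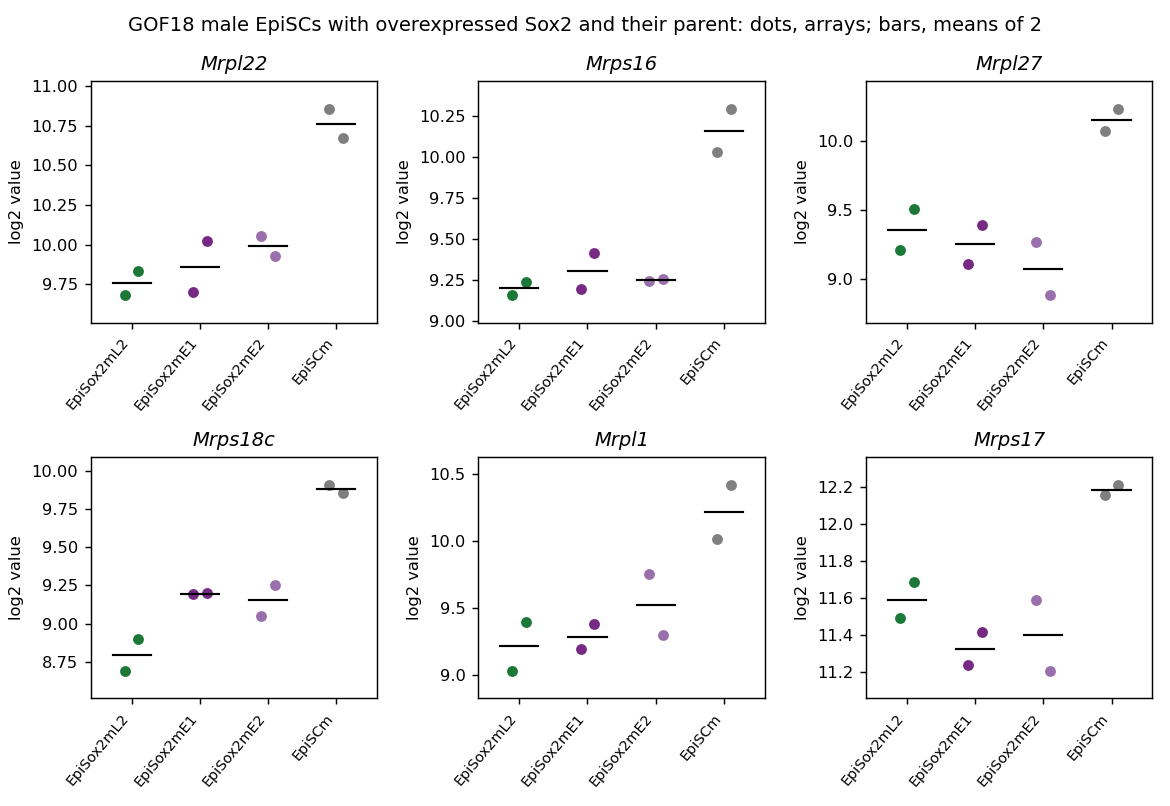
Normalised log2 values (y axis) of 6 genes in EpiSox2mL2, EpiSox2mE1 and EpiSox2mE2 and their parent EpiSCm, with dots for single arrays and bars for means of 2 arrays. In each panel the 6 arrays of the 3 lines lie below both EpiSCm arrays, for Mrpl22 at 9.68 to 10.05 against 10.67 and 10.86.

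The number of falls depends on the fit and on single arrays. With EpiSox2mL2 replicate 1 left out, 9 genes fell in EpiSox2mL2 (5.35% of all genes), and with EpiSox2mE1 replicate 1 left out 13 fell in EpiSox2mE1 (11.6% of all genes). Fitted on their own 4 arrays, the comparisons called 6, 8 and 2 genes down, against 2.50%, 7.96% and 5.36% of all genes, and with median scaling 39 genes fell in EpiSox2mE2, against 26.8% of all genes. Markers of other cell types moved with the groups. The summed linear signal of 9 feeder or fibroblast markers was 397 to 474 in EpiSox2mL2, 479 to 511 in EpiSox2mE1 and 556 to 683 in EpiSox2mE2, against 368 to 405 in EpiSCm. Of these, 1, 2, 2 and 1 markers were detected, and Col1a2, Lum, Pdgfra and Postn were detected on no array of the 4 groups. The sum of 8 extraembryonic endoderm markers was 3140 to 3414, 1618 to 1746 and 2005 to 2218 in the 3 lines, against 3221 to 3526 in EpiSCm, with 4, 5, 4 and 5 detected and Gata4 and Afp at background in all. For 5 neural markers the sums were 365 to 367, 192 to 259 and 208 to 296, against 533 to 570 in EpiSCm, with 1 detected in each group. Their part in the falls was not tested.

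Promoter sequence was available for 63 of the 71 genes, as the 250 bases before and 50 after the start in RefSeq's annotation of GRCm38.p6. The motif CCGGAAG, an ETS site of the kind GABP binds, stood in 25 of the 63 windows (39.7%) on either strand, against 12.9% of 17492 protein-coding genes. The core GCGCATGC bound by NRF1 stood in 7 (11.1%, against 3.94%), and AAGATGG, a YY1 site, in 12 (19%, against 7.18%). The other motifs searched were less frequent or about as frequent as elsewhere: CACGTG, an E-box bound by MYC, in 5 (7.94%, against 8.91%), CCAAT in 24 (38.1%, against 42.3%) and TATAAA in 5 (7.94%, against 14.8%). Both strands were searched, matches of different motifs may overlap, and each was counted on its own. GABP and NRF1 are known activators of nuclear genes for mitochondrial proteins. A motif is a match of letters and not a bound site. The 63 genes had passed the detection filter, whereas the 17492 protein-coding genes were not filtered. The shares among the genes tested were not computed, so an excess particular to this family was not tested. The ETS motif was in 8 of 20 genes that fell in EpiSox2mL2 and 17 of 43 others, 9 of 20 and 16 of 43 in EpiSox2mE1, and 8 of 19 and 17 of 44 in EpiSox2mE2.

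The 250 bases before the start are shown for 4 genes that fell in all 3 lines and for Mrps7, which was called in no comparison, all on the plus strand of GRCm38.p6. Capitals mark the motifs. They are the ETS site in Mrpl22 (chr11:58171414-58171663), whose first base is 53 bases before the start, with the NRF1 core at 33, the ETS site in Mrpl27 (chr11:94653541-94653790) at 55, and in Mrps18c (chr5:100798509-100798758) the E-box at 163 with the ETS site in reverse at 156. Mrpl1 (chr5:96209865-96210114) and Mrps7 (chr11:115603890-115604139) hold none of the 6 motifs in these bases. The longer window of Mrps7 does hold a YY1 site, which does not lie fully within the bases shown.
Mrpl22: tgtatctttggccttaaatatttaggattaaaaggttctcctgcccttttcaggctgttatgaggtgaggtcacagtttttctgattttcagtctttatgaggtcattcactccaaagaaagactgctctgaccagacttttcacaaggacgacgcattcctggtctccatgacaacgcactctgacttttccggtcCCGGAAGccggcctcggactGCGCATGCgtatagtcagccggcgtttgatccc
Mrpl27: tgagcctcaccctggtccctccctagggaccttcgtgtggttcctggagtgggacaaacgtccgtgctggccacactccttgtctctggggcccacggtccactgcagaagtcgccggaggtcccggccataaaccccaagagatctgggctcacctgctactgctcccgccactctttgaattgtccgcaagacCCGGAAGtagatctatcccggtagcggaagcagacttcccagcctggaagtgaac
Mrps18c: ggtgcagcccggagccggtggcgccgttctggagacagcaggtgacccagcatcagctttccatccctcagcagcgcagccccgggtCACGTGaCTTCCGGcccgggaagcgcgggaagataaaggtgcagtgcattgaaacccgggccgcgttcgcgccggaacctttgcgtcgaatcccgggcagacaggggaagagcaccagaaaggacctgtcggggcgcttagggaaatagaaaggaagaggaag
Mrpl1: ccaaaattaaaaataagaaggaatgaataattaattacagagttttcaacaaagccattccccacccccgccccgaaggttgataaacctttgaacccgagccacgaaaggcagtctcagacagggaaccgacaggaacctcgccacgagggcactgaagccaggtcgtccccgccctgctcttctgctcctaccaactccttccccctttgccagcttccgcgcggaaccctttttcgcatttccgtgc
Mrps7: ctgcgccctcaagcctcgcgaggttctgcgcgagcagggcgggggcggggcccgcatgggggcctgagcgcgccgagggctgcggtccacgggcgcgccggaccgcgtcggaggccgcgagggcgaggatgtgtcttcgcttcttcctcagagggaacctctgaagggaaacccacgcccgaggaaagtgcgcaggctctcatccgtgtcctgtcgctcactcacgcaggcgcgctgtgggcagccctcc

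Some mitochondrial ribosomal protein genes start close to a gene on the other strand. Of the 63 genes, 21 (33.3%) had a protein-coding gene starting in the opposite direction within 1000 bases, against 8.48% of all protein-coding genes, which again were not filtered for detection. Among them were the pair Mrps11 and Mrpl46, 42 bases apart, Mrps12 with the mitochondrial seryl-tRNA synthetase Sars2 (147 bases), Mrpl43 with the mitochondrial helicase Twnk (116 bases) and Mrpl47 with the complex I subunit Ndufb5 (308 bases). For 17 of the 21 genes the neighbour was tested too, with the pair Mrps11 and Mrpl46 counted from both sides. In each GOF18 line the partners of 1 pair were called in the same direction. Mrpl47 and Ndufb5 both fell in EpiSox2mE1 (-0.47 and -0.53) and in EpiSox2mE2 (-0.41 and -0.60), and Mrpl14 and Tmem63b, whose starts are 131 bases apart, both rose in EpiSox2mL2 (0.45 and 0.88). Mrpl2 fell by 0.86 in EpiSox2mE1 and 0.66 in EpiSox2mE2, while Klc4, a kinesin light chain that starts 141 bases away, rose by 0.73 and 0.50. Next to Mrps18c, the helicase gene Helq, whose start lies 159 bases away, changed by 0.01, 0.15 and 0.03 in the 3 lines and was not called.

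The GOF18 Sox2 lines in ESC medium were set against the 1 line in EpiSC medium, so medium and line cannot be told apart. Of the 71 genes, 7 rose and 6 fell in EpiSox2mE1 against EpiSox2mL2 (14% and 17.2% of all genes), and 7 rose and 8 fell in EpiSox2mE2 against EpiSox2mL2 (15.7% and 19.5%). Both comparisons share the EpiSox2mL2 arrays, and both shares lie below those of all genes. Mrpl15, a large subunit protein with a bacterial counterpart, moved most. It read 6.33 and 6.26 in EpiSox2mE1 and 6.51 and 6.78 in EpiSox2mE2, against 4.90 and 4.74 in EpiSox2mL2, where neither array detected it. It was thus at least 2.01-fold higher in EpiSox2mE1 and at least 2.56-fold higher in EpiSox2mE2 (adjusted p = 1.17e-05 and 9.68e-07). A lower bound sets the brighter mean against the detection limit of the dimmer arrays, here and below. In EpiSCm, Mrpl15 read 6.07 and 5.51, between these lines.

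Other genes higher in EpiSox2mE1 and EpiSox2mE2 than in EpiSox2mL2 were the small subunit genes Mrps2, with log2 changes of 0.69 ± 0.14 in EpiSox2mE1 and 0.82 ± 0.14 in EpiSox2mE2, and Mrps25, with 0.72 ± 0.24 and 1.06 ± 0.24. Mrpl18, whose product also carries the 5S RNA into mitochondria in human cells, rose by 0.55 ± 0.19 and 0.72 ± 0.19. Lower were Mrpl38, a protein of the central protuberance, with 11.43 and 11.42 in EpiSox2mE1 and 11.50 and 11.43 in EpiSox2mE2, against 12.21 on both EpiSox2mL2 arrays. It was 1.73- and 1.68-fold lower (adjusted p = 6.33e-05 and 0.000104), and the arrays of both lines stand clear of those of EpiSox2mL2. Mrpl14 fell by 0.56 and 0.73 and Mrpl10, a base of the stalk that recruits translation factors, by 0.55 and 0.57. Mrpl2 fell by 0.67 in EpiSox2mE1 and Mrpl33 by 0.52 in EpiSox2mE2. Between the ESC-medium lines, EpiSox2mE2 against EpiSox2mE1, limma called 0 of the 71 genes in either direction (1.12% of all genes rose and 1.27% fell), and 1 had an unadjusted p under 0.05. Every alternative fit also gave 0, save that 1 gene fell without EpiSox2mE2 replicate 2.

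These counts are small and moved with single arrays. Leaving out an EpiSox2mL2 or EpiSox2mE1 array left 3 to 5 rises and 4 to 5 falls in EpiSox2mE1 against EpiSox2mL2, with 3 rises without EpiSox2mL2 replicate 2 or without EpiSox2mE1 replicate 2. In EpiSox2mE2 against EpiSox2mL2, 4 rises were left without either EpiSox2mL2 array, 4 falls without EpiSox2mL2 replicate 2 or EpiSox2mE2 replicate 1, and 5 falls without EpiSox2mL2 replicate 1. With median scaling 2 genes rose and 11 fell there. Without EpiSox2mL2 replicate 2, Mrps25 and Mrpl18 were no longer called in either line, Mrpl2 in EpiSox2mE1 and Mrpl33 in EpiSox2mE2. Without EpiSox2mE1 replicate 2 the calls of Mrps25 and Mrpl18 in EpiSox2mE1 were lost, and without EpiSox2mE2 replicate 1 those of Mrpl18 and Mrpl33 in EpiSox2mE2.

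In the female lines, EpiSCs had lower messages of many mitochondrial ribosomal proteins than embryonic stem cells. In EpiSCf against ESCf, 12 of the 71 genes rose and 26 fell, while 32.9% of all genes rose and 27.3% fell. The falls make 36.6% and the rises 16.9% of the 71. Genes with a bacterial counterpart made 18 of the falls, out of 40, and 8 came from the 31 others. Mrpl39, a distant relative of a tRNA synthetase domain, read 6.29 and 6.02 in EpiSCf, against 8.05 on both arrays of ESCf, and was 3.71-fold lower (adjusted p = 1.45e-07). Mrpl1 was 2.50-fold lower, at 9.15 and 9.29 in EpiSCf, against 10.55 and 10.54 in ESCf (adjusted p = 1.84e-06). Mrpl48 fell by 1.03 ± 0.19 and Mrps6 by 0.97 ± 0.19 on the log2 scale. Mrpl34 rose most, with 11.66 and 11.71 in EpiSCf, against 10.32 and 10.41 in ESCf, a 2.50-fold difference (adjusted p = 5.00e-06). Mrpl23, next to the tunnel exit, rose by 0.91, Mrpl38 by 0.85 and Mrps21 by 0.82. In all of these genes the arrays of the groups do not overlap. The 13 further probes of 10 genes that fell were all lower too, and 9 of them were called. The falls include Mrpl57, which was not detected on any array of either group.

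The balance of rises and falls rests on the scaling. With median scaling, which moved the median change of all genes to 0.24 instead of 0.07, 17 of the 71 genes rose and 17 fell (23.9% each, against 39.7% and 20.9% of all genes), and their own median was 0.12 instead of -0.10. Relative to all genes it was -0.13 with median scaling and -0.17 without. The feeder marker sum was 446 to 457 in EpiSCf, against 755 to 827 in ESCf, with 2 and 4 of 9 detected and Col1a2, Lum, Pdgfra, Postn and S100a4 at background in both. The extraembryonic endoderm sum was 923 to 969, against 1681 to 1682, with 3 and 4 of 8 detected, and the neural sum 470 to 506, against 188 to 190, with 1 of 5 detected in each. Their part in the result was not tested.

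Among the 71 genes, 20 rose and 8 fell in Epi-Sox2f against EpiSCf, while 13.5% of all genes rose and 15.3% fell. The rises make 28.2% of the 71, 13 of the large and 7 of the small subunit. Both female comparisons share the EpiSCf arrays, so a low EpiSCf value enters both. Mrpl48 read 9.67 and 9.55 in Epi-Sox2f and 8.52 and 8.55 in EpiSCf, next to 9.68 and 9.45 in ESCf. Epi-Sox2f and ESCf overlap in this gene and EpiSCf lies below both. Mrpl48 was 2.11-fold higher in Epi-Sox2f than in EpiSCf (adjusted p = 0.000565), and its 3 probes had log2 changes of 1.05, 1.24 and 1.08. Mrpl1 read 10.04 and 10.02 in Epi-Sox2f and 9.15 and 9.29 in EpiSCf, a rise of 0.81 (adjusted p = 0.00155) that did not reach the 10.55 and 10.54 of ESCf. Mrpl27 read 10.15 and 9.98 in Epi-Sox2f and 9.22 and 9.11 in EpiSCf, and the Epi-Sox2f arrays also lie above the 9.48 and 9.76 of ESCf. It was 1.87-fold higher than in EpiSCf (adjusted p = 0.00175).

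Mrps6 was 1.78-fold higher (adjusted p = 0.00326), with 9.52 and 9.16 in Epi-Sox2f, against 8.33 and 8.70 in EpiSCf. Mrps25 rose by 0.82 ± 0.24 (adjusted p = 0.0149). Of the genes that fell, Mrpl34 read 11.18 and 10.74 in Epi-Sox2f and 11.66 and 11.71 in EpiSCf, between the EpiSCf and ESCf values, with a log2 change of -0.72 (adjusted p = 0.00599). Mrps15 fell by 0.63, Mrpl43 by 0.60 and Mrpl37 by 0.55. Mrpl39 did not pass the test, at 6.88 and 6.39 in Epi-Sox2f and 6.29 and 6.02 in EpiSCf. Of the genes described in the GOF18 lines, Mrpl22 and Mrps18c rose in Epi-Sox2f by 0.77 and 0.64, and Mrps16 and Mrps17, with 0.32 and 0.31, were not called. The difference between the Sox2 effects in the female and the GOF18 line was not tested. The 15 further probes of 10 genes that rose were all higher too, and 8 were called. The rises include Mrpl57, which was not detected in Epi-Sox2f or EpiSCf.

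**Figure D3:**
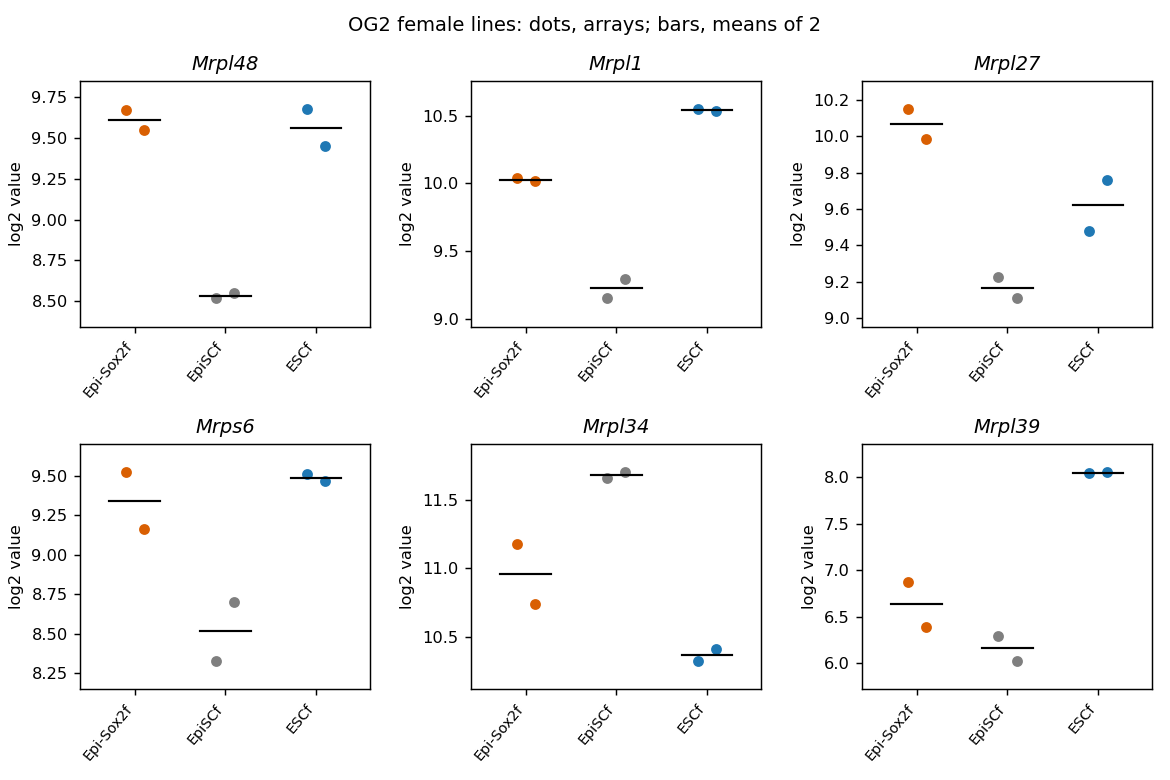
Normalised log2 values (y axis) of 6 genes in Epi-Sox2f, EpiSCf and ESCf, with dots for single arrays and bars for means of 2 arrays. In Mrpl48 and Mrps6 the Epi-Sox2f arrays reach the level of ESCf, for Mrpl48 at 9.55 and 9.67, and in Mrpl39 they stay near EpiSCf.

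Single arrays decide how many genes were called in Epi-Sox2f, in which the Sox2 probe was not higher than in EpiSCf. Without EpiSCf replicate 1, 9 rose and 4 fell (7.80% and 8.91% of all genes). Without Epi-Sox2f replicate 1, 11 rose (7.74% of all genes), without Epi-Sox2f replicate 2, 1 fell, and with median scaling 12 rose (9.25% of all genes), where the median of the 71 genes was -0.02 instead of 0.08 and that of all genes -0.06 instead of -0.01. Mrps6 and Mrps25 were not called without EpiSCf replicate 1 or Epi-Sox2f replicate 1, Mrps15 not without EpiSCf replicate 1 or Epi-Sox2f replicate 2, and Mrpl34 and Mrpl43 not without Epi-Sox2f replicate 2. The feeder marker sum was 612 to 681 in Epi-Sox2f, against 446 to 457 in EpiSCf, with 2 of 9 detected in each. The endoderm sum was 2342 to 2347, against 923 to 969, with 3 of 8 detected in each and Gata4, Gata6, Sox17, Afp and Foxa2 at background in both. The neural sum was 532 to 556, against 470 to 506, with 1 of 5 detected in each. Their part in the result was not tested.

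The GOF18 arrays differ from the rest in ways that reach these genes. In 12 of the 71 genes (16.9%) all 8 GOF18 arrays lie below the other 16, where 9% of all genes do so, and in 1 (1.41%), Mrpl35, all 8 lie above, where 6.78% of all genes do so. Mrps15 lay between 6.54 and 7.22 on the 8 arrays, against 9.25 to 10.23 on the others, and Mrpl20 between 8.36 and 9.29, against 11.36 to 12.10. The gap between the means was -2.97 in Mrps15 and -2.95 in Mrpl20. In Mrpl52 and Mrps18c it was -2.64 and -2.01, and in Mrpl39, which was not detected in the 4 GOF18 groups, -1.93 or lower. In Mrps25 it was -2.66 on the probe used, whereas the other kept probes gave 0.61 and 0.35. Of the genes below with a further kept probe, Mrpl51 showed a gap of -0.01 and Mrps26 of -0.89 on that probe. The remaining 6 genes below are Mrpl51, Mrpl55, Mrpl16, Mrps28, Mrps26 and Mrpl50. Outside these 12 genes the gap also depended on the probe. Further probes gave -4.24 in Mrpl13 and -3.67 in Mrpl47, against -0.57 and -0.27 on the probes used, and several GOF18 arrays did not detect them. The further probe of Mrpl18 was detected on no GOF18 array and on all the others. The other 16 arrays include the male ESCm, F9 and P19 arrays. In the 12 genes these lie with the female arrays by the choice of genes. The array set and the GOF18 background cannot be told apart in these gaps, as no GOF18 array lies in the brighter set.

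**Figure D4:**
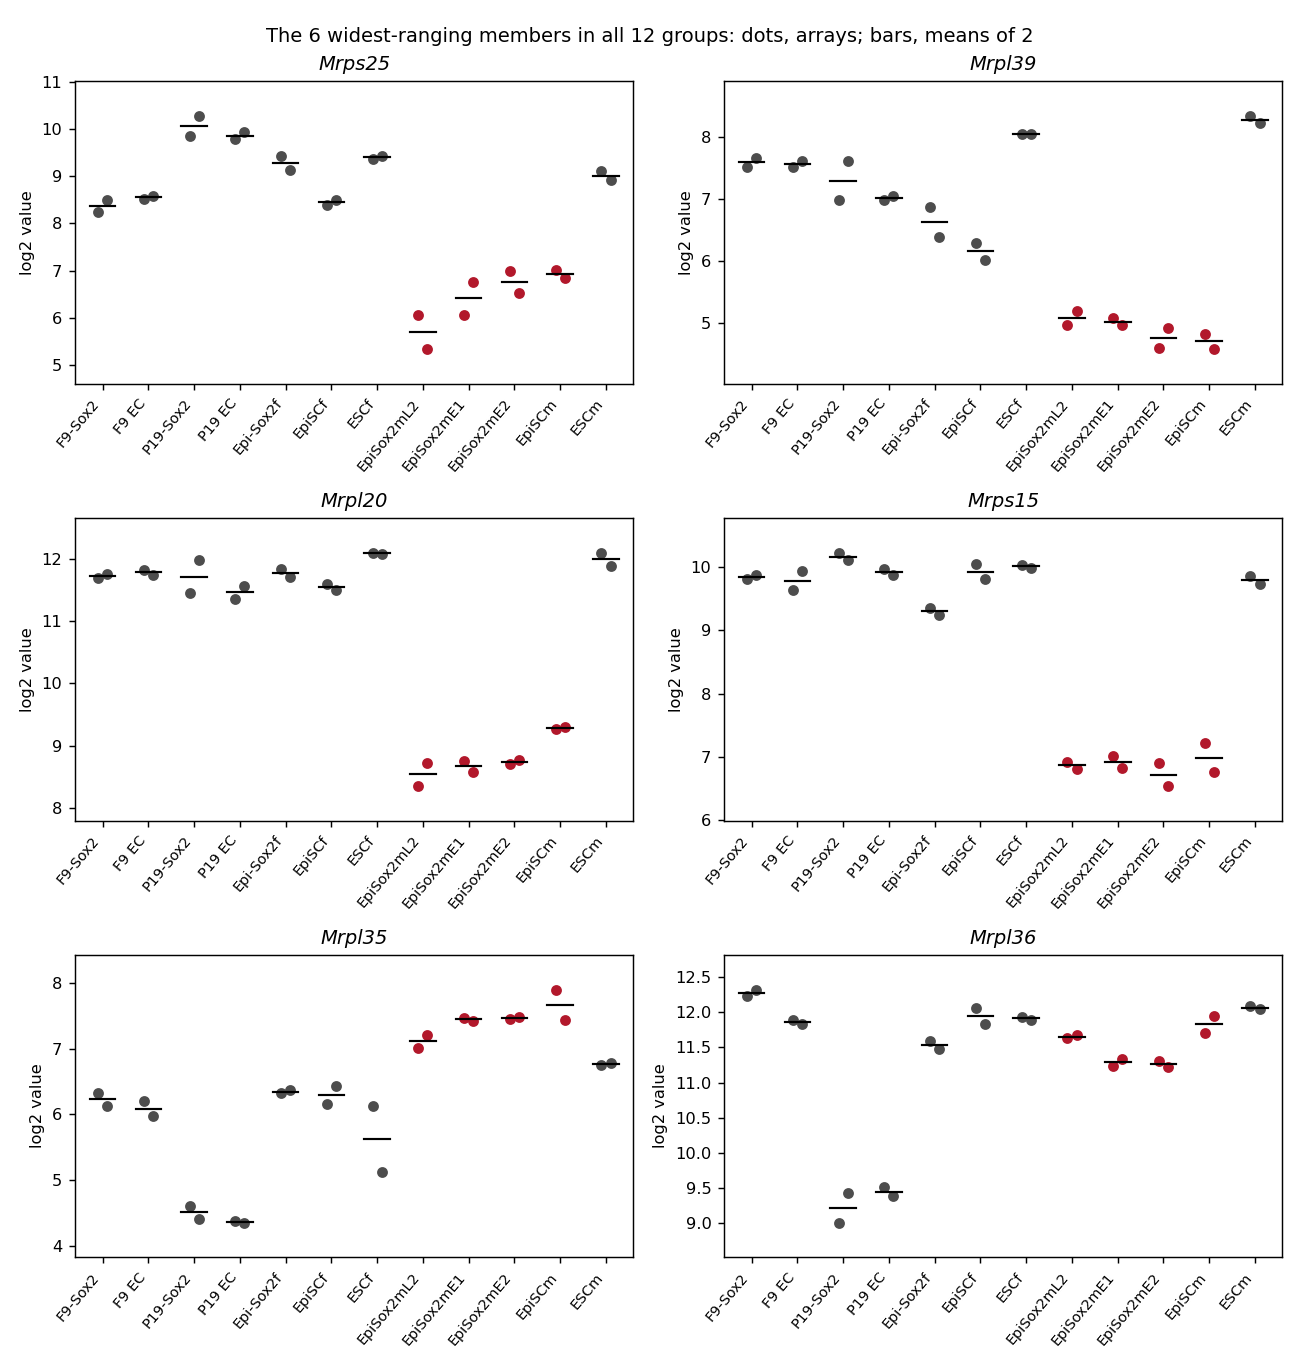
Normalised log2 values (y axis) in all 12 groups for the 6 genes with the widest range of group means on the probe used. Dots are single arrays, bars are means of 2 arrays and red marks the GOF18 lines. Mrps15 and Mrpl20 split into the 8 GOF18 arrays and the other 16, while Mrpl36 is low in P19-Sox2 and P19 EC; Mrpl39 in the GOF18 groups and Mrpl35 in P19-Sox2 and P19 EC were not detected.

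EpiSCm against ESCm crosses that divide. Of the 71 genes, 22 rose and 24 fell, against 41.1% and 28.6% of all genes. The lowest were Mrpl39, at 4.83 and 4.58 in EpiSCm, where it was not detected, against 8.34 and 8.22 in ESCm, at least 7.64-fold lower (adjusted p = 2.39e-11), and Mrps15, at 7.22 and 6.76, against 9.86 and 9.74, 7.01-fold lower. Mrpl20 was 6.53-fold and Mrpl52 4.53-fold lower. Mrpl10 rose by 1.26, Mrpl23 by 1.17 and Mrpl53 by 1.15, and Mrpl57 was at least 1.69-fold higher. Only the GOF18 groups detected Mrpl57 on both arrays, so it passed the detection filter through the groups where it is high. Its rise, counted among the 22, is therefore tied to the filter. Probes of a gene often disagreed here. Of 7 further probes of 6 genes that fell, 4 were lower and 2 were called in the opposite direction, and of 6 further probes of 4 genes that rose, 1 was higher and 2 were called lower. Mrps25 changed by -2.07, 0.92 and 0.44 by probe, Mrpl51, detected on 1 of 2 arrays of a group by each probe, by -1.04 and 0.73 and Mrpl3 by 0.94 and -0.80, while of the 4 probes of Mrpl49 1 gave 0.49 and another -1.36. In P19 EC against ESCm the probes of Mrpl10 did so too, with 1.01 and -0.95. With median scaling 9 of the 71 genes rose and 36 fell in EpiSCm (12.7% and 50.7%, against 24.5% and 39% of all genes), and the median of all genes moved to -0.17 instead of 0.18. The feeder marker sum was 368 to 405 in EpiSCm, against 599 to 634 in ESCm, the endoderm sum 3221 to 3526, against 1312 to 1330, and the neural sum 533 to 570, against 184 to 214, with their part not tested.

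The difference between both EpiSC effects, EpiSCf minus ESCf against EpiSCm minus ESCm, was called up in 14 and down in 20 of the 71 genes (23% and 27.6% of all genes). On the upper side stood Mrps15 (2.73), Mrpl52 (2.27), Mrpl20 (2.17) and Mrpl39 (at least 1.04, as EpiSCm did not detect it), all genes that separate the GOF18 arrays. On the lower side stood Mrpl9 (-1.25), Mrpl27 (-1.13) and Mrpl33 (-0.88). Mrpl57 was called down too, but EpiSCf, ESCf and ESCm did not detect it, so it has no value here. Probes of 1 gene were called in opposite directions in Mrpl1 (-0.87 and 1.33, the second probe being detected on 1 of the EpiSCm arrays), Mrpl3 (-0.79 and 0.82) and Mrps25 (-1.29 and 1.12). Without EpiSCf replicate 1, 13 were called down. With median scaling the calls became 32 up and 1 down, and the median of all genes 0.47 instead of -0.10.

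In the embryonal carcinoma lines few of these genes were called with Sox2 overexpressed. In F9-Sox2 against F9 EC, limma called 0 of the 71 genes in either direction (5.36% of all genes rose and 4.36% fell), with 7 at an unadjusted p under 0.05. A normexp offset of 50 and the genes detected on all arrays each gave 1 rise, and median scaling gave 1 fall. In P19-Sox2 against P19 EC, 1 gene rose and 2 fell (5.89% and 4.51% of all genes). Mrps6, of the small subunit platform, read 9.31 and 9.68 in P19-Sox2 and 8.53 and 8.50 in P19 EC, clear of each other, and was 1.98-fold higher (adjusted p = 0.00209). Mrps10 fell by 0.61 (adjusted p = 0.0276) and Mrps34 by 0.43 (adjusted p = 0.0475). Both falls were lost when either P19 EC array or P19-Sox2 replicate 1 was left out, and that of Mrps10 also without P19-Sox2 replicate 2. The difference of the Sox2 effects, P19-Sox2 minus P19 EC against F9-Sox2 minus F9 EC, was called up in Mrps6 (0.91) and down in Mrpl36 (-0.64), 1 gene each way, against 5.15% and 4.84% of all genes. Mrps6 kept that call only without P19-Sox2 replicate 1, and Mrpl36 only without P19-Sox2 replicate 2, of the 8 arrays left out in turn.

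Against ESCm, 21 genes rose and 14 fell in F9 EC (24.6% and 23.6% of all genes), and 19 rose and 21 fell in P19 EC (29.2% and 27.3%). Both share the ESCm arrays. In F9 EC, Mrps27, a protein with repeats that bind RNA, read 6.74 and 6.39, against 8.52 and 8.56 in ESCm, 3.94-fold lower (adjusted p = 4.29e-07). Mrpl45, which ties the ribosome to the inner membrane, was at least 1.34-fold lower in F9 EC and not detected there, and rose by 1.30 in P19 EC. Mrpl9 and Mrpl49 fell in F9 EC by 0.97 and 0.83. Mrps35, Mrpl37, Mrpl3 and Mrps26 rose there by 1.18, 1.02, 0.95 and 0.92. In P19 EC the largest fall was in Mrpl36, a small zinc-binding protein added late to the large subunit, with 9.51 and 9.39, against 12.08 and 12.05 in ESCm, 6.14-fold lower (adjusted p = 2.83e-11). P19-Sox2 was as low, at 9.01 and 9.43, whereas no other group fell under 11.22. Mrpl35 was not detected in P19 EC and was at least 2.13-fold lower than in ESCm, and Mrpl15 and Mrpl39 fell by 1.30 and 1.26. Mrpl23, Mrpl10 and Mrpl55 rose by 1.23, 1.01 and 0.90.

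Fewer calls held without single arrays. In F9 EC, 9 genes fell without ESCm replicate 1 or F9 EC replicate 2, and with median scaling 24 rose and 8 fell. In P19 EC, 11 genes rose without P19 EC replicate 1 and 12 without ESCm replicate 2. The feeder marker sum was 259 to 278 in F9 EC and 281 to 307 in P19 EC, against 599 to 634 in ESCm, with its part not tested.

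Over the 12 groups the means of Mrps25 spanned 4.36 on the log2 scale on the probe used, with P19-Sox2 highest and EpiSox2mL2 lowest. Its other kept probes spanned 1.31 and 1.10, with EpiSox2mE2 highest and F9-Sox2 lowest, so that range is not borne out by them. Mrpl20 spanned 3.54, Mrps15 3.44 and Mrpl36 3.06. Mrpl39 spanned at least 3.0 and Mrpl35 at least 2.07, with the groups that did not detect them set at the detection limit. Narrow ranges were those of Mrps7 (0.37), whose product is part of the tRNA exit site, Mrpl28 (0.45), Mrps22 (0.62) and Mrps11 (0.64). The second probes of Mrps7 and Mrps11 spanned 1.2 and 0.85. Those of Mrpl13 and Mrpl47 spanned 5.29 and 4.86, wider than any probe used, with several GOF18 arrays not detecting them. Mrps7 was the only 1 of the 71 genes called in none of the 13 comparisons. Mrpl10 and Mrpl38 were called in 8 each, the most. Group means most like those of Mrps25 were found in Fbxo25 (Pearson r = 0.993 over 12 groups), Rpl31 (0.982) and Bud31 (0.982), and most like those of Mrpl39 in Prune1 (0.980), Sugt1 (0.979) and Ddx39a (0.977), with the 4 GOF18 groups of Mrpl39 at background. For Mrpl20 they were Med28, 4833439L19Rik and Ncbp2 (0.993 each), and for Mrps15 Mrpl52 (0.994), Tars (0.993) and Eif3k (0.992). These correlations share the arrays and the split between the GOF18 and the other arrays.

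**Figure D5:**
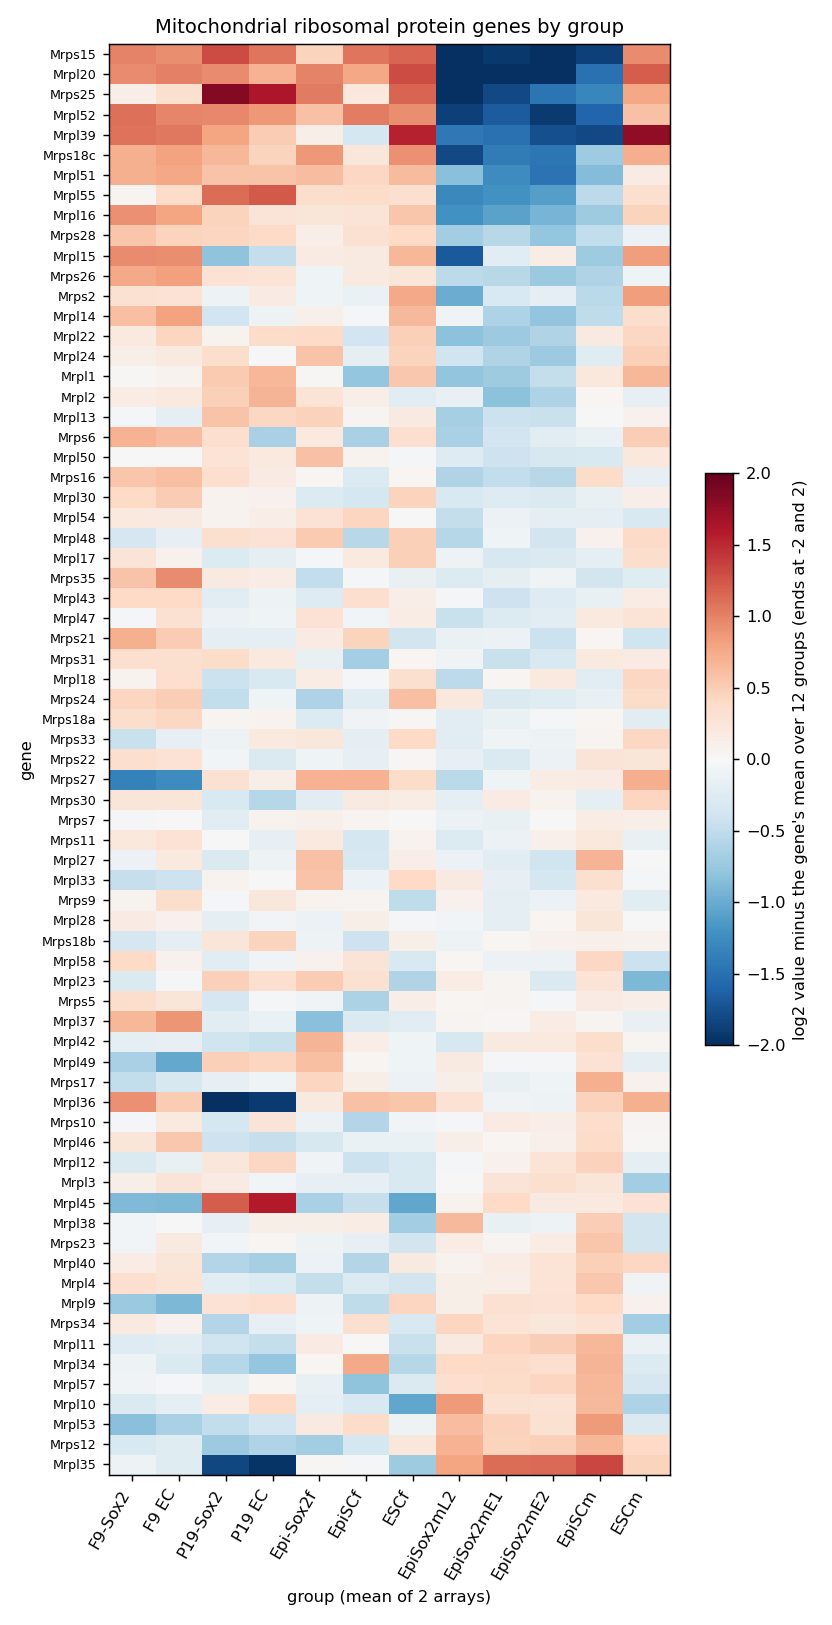
Group means of the 71 genes (rows) in the 12 groups (columns), each as log2 value minus that gene's mean over the groups, with colours ending at -2 and 2. The upper rows, from Mrps15 to Mrpl16, are blue in the 4 GOF18 groups, and Mrpl36 and Mrpl35 are blue in P19-Sox2 and P19 EC.

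Other genes of the mitochondrial translation system were counted in the same fit. Of 15 translation factors, 3, 3 and 2 fell in EpiSox2mL2, EpiSox2mE1 and EpiSox2mE2 against EpiSCm, and 0, 1 and 1 rose. The falls are 20%, 20% and 13.3% of that list, beside 11.4%, 15.5% and 16% of all genes, with 1 gene making 6.67%. Mtrf1, a release factor, fell by 1.41 in EpiSox2mE1 and 1.45 in EpiSox2mE2, and Gatc, a subunit of the enzyme that charges glutamine tRNA, by 0.53 in EpiSox2mL2 and 0.77 in EpiSox2mE1. Among 17 genes of assembly and RNA modification, 3, 4 and 4 fell and 0, 1 and 1 rose, the falls being 17.6%, 23.5% and 23.5%. They include Tfb1m, which methylates the small ribosomal RNA, with -0.66 in EpiSox2mL2 and -0.54 in EpiSox2mE1, Mterf4, a targeting factor for an RNA methylase, with -0.48 in EpiSox2mE1 and -0.51 in EpiSox2mE2. The GTPase Mtg1 fell below detection in both, at least 1.15-fold in each. The 1 assembly gene that rose in EpiSox2mE1 and in EpiSox2mE2 was Noa1, by 0.31 and 0.62. Of 13 mitochondrial aminoacyl-tRNA synthetases, 0, 2 and 2 fell and 0, 1 and 1 rose. Of 3 mitochondrial ribosomal proteins under other symbols, Dap3, Chchd1 and Ptcd3, Chchd1 fell by 0.50 in EpiSox2mE1 and 0.66 in EpiSox2mE2.

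In Epi-Sox2f against EpiSCf, 4 of the 17 assembly genes rose and 2 fell (23.5% and 11.8%, beside 13.5% and 15.3% of all genes), with Mterf4 at 0.89, Mrm1, a methylase of the large ribosomal RNA, at 0.87 and Tfb1m at 0.58. Noa1 was 1 of the 2 that fell, by 0.57. The recycling factor Mrrf rose by 0.80 and the ribosomal protein gene Ptcd3 by 0.55. Of the 13 synthetases 0 rose and 2 fell. The respiratory chain and ATP synthase genes, taken by the start of their symbols, numbered 82. Of them 26 rose (31.7%) and 8 fell (9.76%) in Epi-Sox2f, and 0 rose while 9, 13 and 27 fell (11%, 15.9% and 32.9%) in EpiSox2mL2, EpiSox2mE1 and EpiSox2mE2. Of 61 cytosolic ribosomal protein genes, 12 rose (19.7%) and 3 fell (4.92%) in Epi-Sox2f, 0 rose and 14 fell (23%) in EpiSox2mL2, 2 and 3 in EpiSox2mE1, and 1 and 4 in EpiSox2mE2. In EpiSCf against ESCf, 10 rose and 27 fell of the 82 respiratory genes and 5 rose and 18 fell of the 61 cytosolic ones. There, 5 of the 13 synthetases rose and 1 fell, with the tryptophan enzyme Wars2, not detected in ESCf, at least 1.52-fold higher.

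The nuclear regulators of mitochondrial genes did not share a direction. Gabpa, the DNA-binding subunit of GABP, fell by 1.89 in EpiSCf against ESCf and fell by 2.14 in EpiSCm against ESCm. It rose by 1.05 in EpiSox2mE1 and 1.06 in EpiSox2mE2 against EpiSCm, and changed by 0.39 in EpiSox2mL2, which did not pass the test. Against ESCf and ESCm, Nrf1 rose by 1.12 in EpiSCf and 0.94 in EpiSCm, and Esrra by 0.43 and 0.89. Gabpb1 rose by 0.77 in EpiSCf and fell by 0.79 in EpiSCm. Ppargc1b rose by 0.95 and Myc fell by 0.68 in EpiSCm. A link between these regulators and the 71 ribosomal protein genes was not tested. Ppargc1b, a coactivator of mitochondrial biogenesis, rose by 0.99 in EpiSox2mL2 and 1.06 in EpiSox2mE1 and fell by 0.91 in Epi-Sox2f, which detected it on 1 array. Esrra, a nuclear receptor for these genes, rose by 0.61 in EpiSox2mL2 and fell by 0.59 in EpiSox2mE2 and by 0.66 in Epi-Sox2f. Myc, detected on 1 of the EpiSCm arrays, rose by 0.65 in EpiSox2mE1 and 0.77 in EpiSox2mE2.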

How the data were processed

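The 24 samples were hybridised one to an array. The authors deposited an intensity and a detection p-value for each of 25697 probes per array, not normalized, and processed log2 values, which served as an alternative (r = 0.992 with the values used here over the genes tested). BeadStudio 3.2, RMA and lumi are listed, per the submitters' processing notes, without order or role. How the authors made the deposited log2 values, and the genome build of the probes, are not given in the sources used here. No depth applies to arrays, whose number of 2 a group limits the precision.

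The deposited intensities were background-corrected with normexp in limma 3.58.1 (R 4.3.3), with background taken from the detection p-values and an offset of 16, then quantile-normalized and put on the log2 scale. Of the probes 23978 had 1 gene symbol and 1719 none; 13082 passed the detection filter, 12324 of them named, for 8932 genes. One mean per group was fitted over all 24 arrays (12 residual and 5.58 prior degrees of freedom) for 13 comparisons and 2 differences of effects, with Benjamini-Hochberg adjustment within each. The fit was tested on simulated data. Where neither array of a group detected a gene, that group was set at its detection limit and only a bound is given. Errors after ± are standard errors of the fit.

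Named in each comparison are the 4 called members with the largest rise and the 4 with the largest fall whose arrays do not overlap and whose higher group was detected on both arrays, and across groups the 6 widest and 4 narrowest ranges, the Mrps18 homologues and genes with probes called in opposite directions. From the other lists, only some of the genes called in at least 4 comparisons are named. Nrf1 and Gabpb1 were added after their values were seen. The 10 tested genes for mitochondrial DNA and its transcription are not reported as a list. Other members in the text were chosen after their values were seen. The members, lists and tests were chosen with earlier results of these data known, and further probes, bounds at the detection limit, neighbouring genes, the Sox2 probe and shares of all genes by setting were looked at after that. Alternatives were median scaling, the authors' log2 values, a normexp offset of 50, no detection filter, genes detected on all arrays, the mean of a gene's kept probes, only the groups compared, the replicate number as a block, and each array left out. Promoters come from RefSeq's annotation of GRCm38.p6, in whose gene table all 71 members were matched. Per the sample labels, in vitro transcription took 10 h, while the series text gives 12 h.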

Additional observations from a re-analysis of the deposited data

Results flagged for a closer look

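The effect of the EpiSC state differed between the female and the male lines in the test of the difference itself, EpiSCf minus ESCf against EpiSCm minus ESCm, in 14 of the 71 genes called up and 20 called down. On the log2 scale the differences were 2.73 in Mrps15, 2.27 in Mrpl52, 2.17 in Mrpl20 and at least 1.04 in Mrpl39, which EpiSCm did not detect, and -1.25 in Mrpl9, -1.13 in Mrpl27 and -0.88 in Mrpl33. EpiSCm is among the 8 dimmer arrays and the 3 other groups are among the brighter 16, so the line and the array set cannot be told apart. The effect of Sox2 differed between P19 and F9 cells in 1 gene called up, Mrps6 (0.91), and 1 called down, Mrpl36 (-0.64), both lost under several alternatives.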

How the results depend on the processing

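Among the genes named in a comparison, 948 of the values recomputed under an alternative kept their direction and side of the threshold. Another 87 kept their direction but no longer passed, and 0 reversed. The lack of reversals was partly fixed in advance. Genes were named where the arrays of 2 groups do not overlap, so leaving out 1 array keeps their direction. Fitting only the groups compared and the replicate block alter the error, not the difference of group means. Reversal was open where values were recomputed, as with median scaling (72 the same, 12 weaker), the authors' log2 values (79 and 5) and an offset of 50 (84 and 0). With median scaling, members called up numbered 32 instead of 14 in the female minus male difference of effects, 12 instead of 20 in Epi-Sox2f, 9 instead of 22 in EpiSCm against ESCm, 2 instead of 7 in EpiSox2mE2 against EpiSox2mL2, and 0 instead of 1 in EpiSox2mL2, EpiSox2mE1 and EpiSox2mE2 against EpiSCm and in the P19 minus F9 difference. Called down were 1 instead of 20 in the female minus male difference, 0 instead of 1 in the P19 minus F9 difference, 17 instead of 26 in EpiSCf against ESCf, 3 instead of 6 in EpiSox2mE1 against EpiSox2mL2, 39 instead of 21 in EpiSox2mE2 against EpiSCm, 8 instead of 14 in F9 EC against ESCm and 1 instead of 0 in F9-Sox2. Fitted on only the groups compared, with fewer residual degrees of freedom by construction, 6, 8 and 2 members fell in EpiSox2mL2, EpiSox2mE1 and EpiSox2mE2 against EpiSCm and 0 rose in each, 1 rose in EpiSox2mE1 against EpiSox2mL2, 2 rose and 2 fell in EpiSox2mE2 against EpiSox2mL2, 1 fell in P19-Sox2, and 0 were down in the P19 minus F9 difference. The P19 minus F9 difference had 0 up and 0 down with the authors' log2 values and without the detection filter, and P19-Sox2 1 down with both and with the mean of a gene's probes. In EpiSox2mE2 against EpiSCm 2 rose with the authors' log2 values, the mean of probes and an offset of 50, in EpiSox2mL2 2 rose with genes detected on all arrays and an offset of 50, and in F9-Sox2 1 rose with both of these. Other than where fewer arrays enter a fit, the cause was not tested.

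With each array left out in turn, members called up ranged from 8 to 13 in EpiSCf against ESCf, 18 to 21 in EpiSCm against ESCm, 9 to 17 in Epi-Sox2f, 0 to 1 in EpiSox2mL2, 0 to 2 in EpiSox2mE1 and 0 to 3 in EpiSox2mE2 against EpiSCm, 3 to 5 in EpiSox2mE1 and 4 to 9 in EpiSox2mE2 against EpiSox2mL2, 14 to 18 in F9 EC, 11 to 14 in P19 EC, and 11 to 15 and 0 to 1 in the differences by sex and by carcinoma line. Members called down ranged from 20 to 23, 20 to 22, 1 to 6, 9 to 19, 13 to 23, 14 to 21, 4 to 5, 4 to 9, 9 to 12, 16 to 18, 13 to 21 and 0 to 1 in the same order, and from 0 to 1 in P19-Sox2 and in EpiSox2mE2 against EpiSox2mE1. A lone array left in a group is assumed to vary like the other groups. With the replicate number as a replicate block, 19, 20 and 19 members fell in EpiSox2mL2, EpiSox2mE1 and EpiSox2mE2 against EpiSCm, 1 fell in P19-Sox2 and 0 were down in the P19 minus F9 difference, and no other count moved by over 1.5 times. Same-numbered arrays deviated together with correlations of -0.166 to 0.07, and the labels do not pair them, so the numbers were treated as names. Signal limits 6 of the 71 genes, which were not detected on every array.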
